A study of Solanum lycopersicum with 6 samples.

Results

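RNA sequencing of leafless tomato (Solanum lycopersicum) shoot tips compared the apex of the leafless (lfs) mutant with pin-shaped shoots induced by TIBA. TIBA (triiodobenzoic acid) inhibits polar auxin transport. The lfs apex and the TIBA pin contributed 4 of the 6 libraries of the study, 2 per group, and the other 2 came from wild-type (WT) apices. Of the 34722 genes in the deposited table, the 19807 with a normalized count of at least 10 in at least 2 of the 6 libraries were compared. The labels give the first group as lfs mutant, without an allele or a genetic background, and the second as pin-like shoots after spraying with 1 mM TIBA, without a genotype. The third group is labelled WT. All seedlings grew in a greenhouse to an age of 14 to 18 days and were fixed in acetone before dissection. The labels give the shoot apical meristem alone as the tissue of lfs and TIBA samples, and the meristem with its 2 youngest leaf primordia as that of WT samples. WT values are therefore given here as context, without a test. Nothing in the labels says that repeats of a group were grown or dissected apart, so a p-value measures only how these libraries spread, and that spread may be technical.

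Leaves arise at the flank of the shoot apical meristem, where auxin is brought to a maximum by PIN efflux carriers. Blocking that transport leaves a naked pin. Loss of LFS, which encodes an AP2/ERF transcription factor of the DORNRÖSCHEN type known from Arabidopsis, also leaves a tomato seedling without leaves. Auxin signals through Aux/IAA repressors and the auxin response factors (ARFs) that they bind. MADS-box proteins of the AP1/FUL, SEPALLATA and B, C and D classes specify the floral meristem and the floral organs in flowering plants.

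Identifiers are not paired with names in the deposited table, and 0 of the 34722 matched the RefSeq gene table (assembly SLM_r2.1). Names were therefore written for 141 identifiers from knowledge of published tomato work, in 15 gene lists and 2 marker lists. RefSeq held 119 of these names, all 119 on the chromosome that the identifier carries, and 634 of 644 pairs on the same chromosome lay in the same order. The 118 names that passed both checks are used below, and the other identifiers of the lists enter the counts only, apart from 1 named as uncertain. No sequence or genome was used here.

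The recovered reads numbered 19914834 and 26054787 in the lfs libraries, 25774076 and 17640302 in the TIBA libraries, and 23888387 and 25022897 in the WT libraries. Between 22445 and 23125 genes had a read in each library. The median SD between libraries of a group was 0.161 log2 units in lfs and 0.23 in TIBA, against 0.0925 in WT (n = 2 each), so only the 4 leafless libraries entered the test.

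Against the TIBA pin, the lfs apex held more transcript of LFS itself, of the floral genes TAG1, MBP3 and FUL1, and of BOP1 and GA20ox1. It held less of the leaf blade gene LYR, of the auxin carrier gene PIN5, and of the auxin response genes IAA15 and ARF4. Several of these differences lost their call when 1 library was left out, as given with each gene below. TAG1 and GA20ox1 also lost theirs by edgeR. Of the 19807 genes, 369 differed between the lfs apex and the TIBA pin (1.86%, limma on log2(normalized count + 1), Benjamini-Hochberg adjusted p under 0.05). In lfs, 136 were higher (0.687%) and 233 were lower (1.18%). All 136 higher genes and 227 of the 233 lower genes differed at least 2-fold, and the median size of a called log2 difference was 2.58. Fold changes here and below are on the log2(normalized count + 1) scale, which understates those of genes with few reads. Over all genes the median log2 difference was 0.02, with an interquartile range of -0.27 to 0.31. An unadjusted p under 0.05 was reached by 3262 genes. In the authors' deposited table, 1460 of 25845 genes had an adjusted p under 0.05 (5.65%), 606 of them higher and 854 lower in lfs, and these included 348 of the 369 genes called here, in the same direction. DESeq2 on the 4 libraries called 5.77% of genes and limma on all 6 libraries 4.6%. The limma test called 47 genes when TIBA replicate 2 was left out, 80 when lfs replicate 2 was, 158 when TIBA replicate 1 was, and 228 when lfs replicate 1 was.

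Both lfs values lay above both TIBA values at 5011 genes (25.3%) and below them at 4677 genes (23.6%), together 48.9%. These counts carry no test, and all 369 called genes were among them. The difference was at least 2-fold at 1094 of the genes above and 1062 of the genes below. Among called genes, 26 higher and 67 lower ones had a log2 difference between 4 and 8 in size, and 1 higher gene and 14 lower genes exceeded 8. Fitted differences of genes near 0 depend on the pseudocount.

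**Figure D1:**
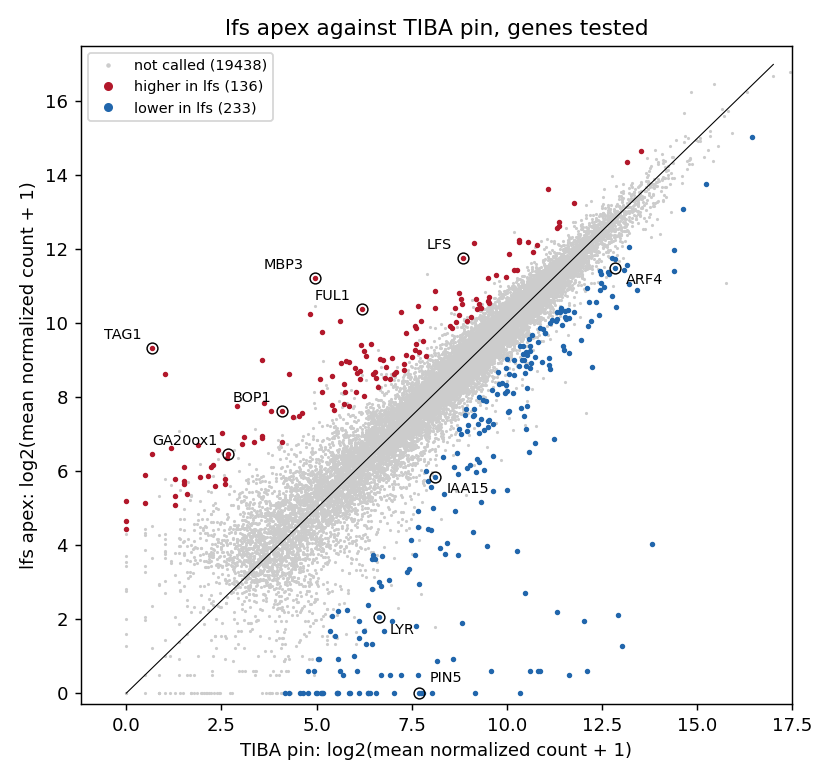
Mean normalized count of each of the 19807 genes in the lfs apex (vertical axis) and the TIBA pin (horizontal axis), both as log2(mean + 1). Red points are the 136 genes higher in lfs and blue points the 233 lower in lfs (limma adjusted p under 0.05). Circled points are 10 named genes of the lists that passed the test, and the row of blue points along the bottom holds genes without a read in lfs, PIN5 among them.

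Some called genes had almost no reads in a group. Among the 233 lower genes, 51 had at most 3 reads over both lfs libraries, and 27 of these had none. In 35 of the 51 the WT mean was at least 10 normalized counts. Among the 136 higher genes, 12 had at most 3 reads over both TIBA libraries, 3 of them none, and 2 of the 12 had a WT mean of at least 10.

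Solyc09g072750.2 and Solyc09g092760.2 (both on chromosome 9 by their identifiers) had the largest losses in lfs among called genes averaging at least 50 normalized counts. The first had normalized counts of 2.03 and 0.813 in lfs, against 5340.2 and 11202 in TIBA pins and 957 and 835 in WT. Its TIBA to lfs ratio was 5717 (exact 95% interval 1956 to 27727, on 15814 reads in TIBA and 3 in lfs; limma adjusted p = 0.00033). For Solyc09g092760.2 the counts were 1.01 and 0 in lfs, against 2321 and 6438 in TIBA pins and 681 and 498 in WT. The TIBA to lfs ratio of Solyc09g092760.2 was 8878 (exact 95% interval 1593 to 350690.0, on 8185 reads in TIBA and 1 in lfs; limma adjusted p = 0.0010). Both genes were read in WT as well as in TIBA pins and were close to 0 in lfs. In the other direction TAG1, described with the floral genes, came first and Solyc02g063480.2 (chromosome 2) second. Solyc02g063480.2 stood at 234 and 555 in lfs, against 0.827 and 1.2 in TIBA pins and 0 and 1.73 in WT. This gene passed the filter on low counts only through lfs, which fixed its place above TIBA. Its lfs to TIBA ratio was 421 (exact 95% interval 116 to 3484, on 914 reads in lfs and 2 in TIBA; limma adjusted p = 0.0039). These 3 genes also passed the test without any 1 of the 4 libraries. Such intervals cover counting error only.

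LFS (Solyc05g013540.1, chromosome 5), the gene affected in the mutant, had normalized counts of 3031 and 3886 in lfs, against 582 and 338 in TIBA pins and 707 and 711 in WT. The transcript was more abundant in both mutant libraries than in any other library, and the TIBA values lay below the WT values. It rose 7.73-fold in lfs over TIBA (log2 2.95, SE 0.28, limma adjusted p = 0.0083) and passed without any 1 library (adjusted p 0.0152 to 0.0452). Mutant alleles can be transcribed, so this level is no check of the labels. Where reads fall along the gene was not analysed here.

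Across the 15 lists, 108 of 134 identifiers passed the filter on low counts, and 12 of the 108 were called (11.1%, against 1.86% of all genes tested). Of these, 7 were higher in lfs and 5 were lower. Both lfs values lay above both TIBA values for 37 of the 108 and below them for 26, where 25.3% and 23.6% of all genes tested did so, and the groups overlapped for 45. The share below was near that of all genes. The median log2 difference was 0.11, against 0.02 over all genes. The lists were chosen with earlier results of these data known, so these shares describe the lists and support no statement about them. The plot of each called gene by library shows 10 of these genes.

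**Figure D2:**
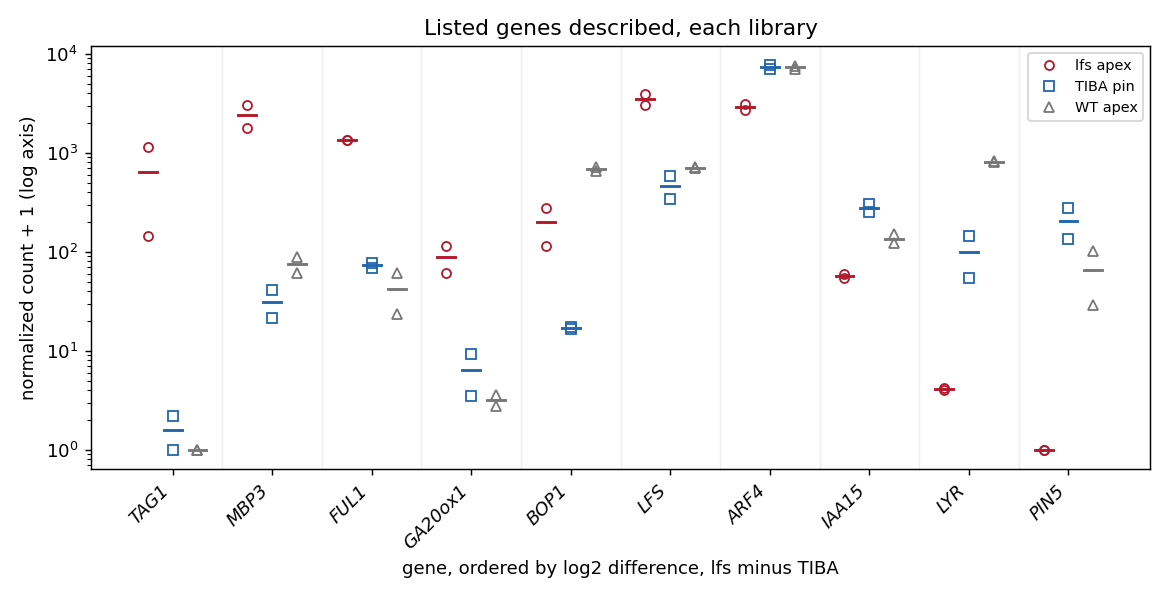
Normalized count + 1 (log axis) of 10 listed genes that passed the test, in each library; bars are group means (n = 2). From TAG1 to LFS both lfs circles lie above both TIBA squares, and from ARF4 to PIN5 they lie below, and WT triangles are shown for context.

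Floral organ identity genes of the C and D classes showed the largest gains among the listed genes. TAG1 (TOMATO AGAMOUS1, Solyc02g071730.2, chromosome 2), the C-class gene of stamens and carpels, had normalized counts of 144 and 1138 in lfs, against 0 and 1.2 in TIBA pins and 0 and 0 in WT. Both lfs libraries read it clearly, the second far more than the first, and the other 4 libraries held a single read. TAG1 passed the filter on low counts only through lfs, which fixed its place above TIBA. The lfs to TIBA ratio was 1421 (exact 95% interval 255 to 56154, on 1541 reads in lfs and 1 in TIBA; limma adjusted p = 0.019). TAG1 did not pass without TIBA replicate 1 (adjusted p = 0.0717), TIBA replicate 2 (0.101) or lfs replicate 2 (0.0718), nor by edgeR (adjusted p 0.0509 with TMM). MBP3 (Solyc06g064840.2, chromosome 6), a gene of the AGL11 clade whose members act in ovules and seeds, stood at 1764 and 3034 in lfs, against 39.7 and 20.3 in TIBA pins and 60.1 and 87.5 in WT. Its groups were far apart, with TIBA and WT both low. MBP3 rose 78.5-fold in lfs (log2 6.29, SE 0.40, limma adjusted p = 0.0020) and passed without any 1 library. The remaining C and D genes, TAGL1 and AGL11, had 0 and 4 reads in lfs and none in TIBA, too few to test.

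Of the B class, needed for petals and stamens, 1 of 4 members could be tested and it was not called. TM6 (Solyc02g084630.2) had 609 and 511 in lfs, against 708 and 683 in TIBA pins and 650.0 and 591 in WT (log2 -0.32, SE 0.19, limma adjusted p = 0.45). TAP3 had 3 reads in lfs and 1 in TIBA, TPI had 1 in each, and the last member of the list had none in either group. Summed over the C- and D-class list, normalized counts were 1908 and 4174 in lfs, against 39.7 and 21.5 in TIBA pins. In bulk tissue, more cells that express a gene and more RNA per cell cannot be told apart.

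Genes of the AP1/FUL type, which act in the floral transition, lay higher in lfs at all 4 tested members, as did 25.3% of genes tested. Of the 4, 1 was called, against 1.86% of all genes tested. FUL1 (Solyc06g069430.2, chromosome 6), known in tomato for its part in fruit ripening, had 1351 and 1337 in lfs, against 75.3 and 68.2 in TIBA pins and 22.4 and 60.7 in WT. The 2 lfs libraries nearly coincided. FUL1 rose 18.5-fold (log2 4.21, SE 0.22, limma adjusted p = 0.0010) and passed without any 1 library, but not when all 6 libraries were fitted with a weight per group (adjusted p = 0.0968). FUL2 had 139.8 and 288 in lfs, against 78.6 and 117 in TIBA pins (log2 difference 1.06, SE 0.44, limma adjusted p = 0.29). MBP20 had 215 and 427 in lfs, against 154 and 199.9 in TIBA pins and 3.59 and 0 in WT (log2 0.78, limma adjusted p = 0.36). Neither passed the test. An identifier listed as MACROCALYX, Solyc05g056620.1, had 307 and 820.4 in lfs, against 102 and 53.9 in TIBA pins and none in WT (log2 2.74, SE 0.53, limma adjusted p = 0.062), and its place on the chromosome did not match RefSeq's order for that name. DESeq2 on the 4 libraries gave Solyc05g056620.1 an adjusted p of 2.39e-06, and the authors' deposited table gives 2.07e-06. MBP10 had 5 reads in lfs and none in TIBA and was not tested.

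Genes of the SEPALLATA type, partners of the other floral MADS proteins, lay higher in lfs at the 3 tested members, as did 25.3% of all genes. TM5 passed the filter on low counts only through the lfs libraries, which fixed its place above TIBA. Of the 3, 0 were called by limma or edgeR and 1 by DESeq2, and 2 reached an unadjusted limma p under 0.05. DESeq2 called 5.77% of all genes, and 3262 of 19807 reached that unadjusted p. The SEP3-type gene TM5 (Solyc05g015750.2) had 16.2 and 255 in lfs, against 0.827 and 2.39 in TIBA pins and none in WT. Its lfs to TIBA ratio was 101 (exact 95% interval 34.4 to 494, on 330 reads in lfs and 3 in TIBA), but the 2 lfs libraries lay far apart and the limma adjusted p was 0.13. As with TAG1, lfs replicate 2 held most of the reads. LIN, which acts in inflorescence branching, had 14.2 and 42.3 in lfs, against 8.27 and 13.2 in TIBA pins (log2 difference 1.16, limma adjusted p = 0.46). RIN, the ripening regulator, had 33.4 and 32.5 in lfs, against 9.1 and 16.8 in TIBA pins (log2 difference 1.34, limma adjusted p = 0.30). J2, EJ2 and TM29 did not pass the filter. J2 had 9.12 and 32.5 in lfs, against no read in TIBA pins, while EJ2 and TM29 stayed under 10 in every library. TM29 lay the other way, with 0 and 0.813 in lfs, against 3.31 and 8.38 in TIBA pins. Its TIBA to lfs ratio was 11.9 (exact 95% interval 1.73 to 514, on 11 reads in TIBA and 1 in lfs).

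**Figure D3:**
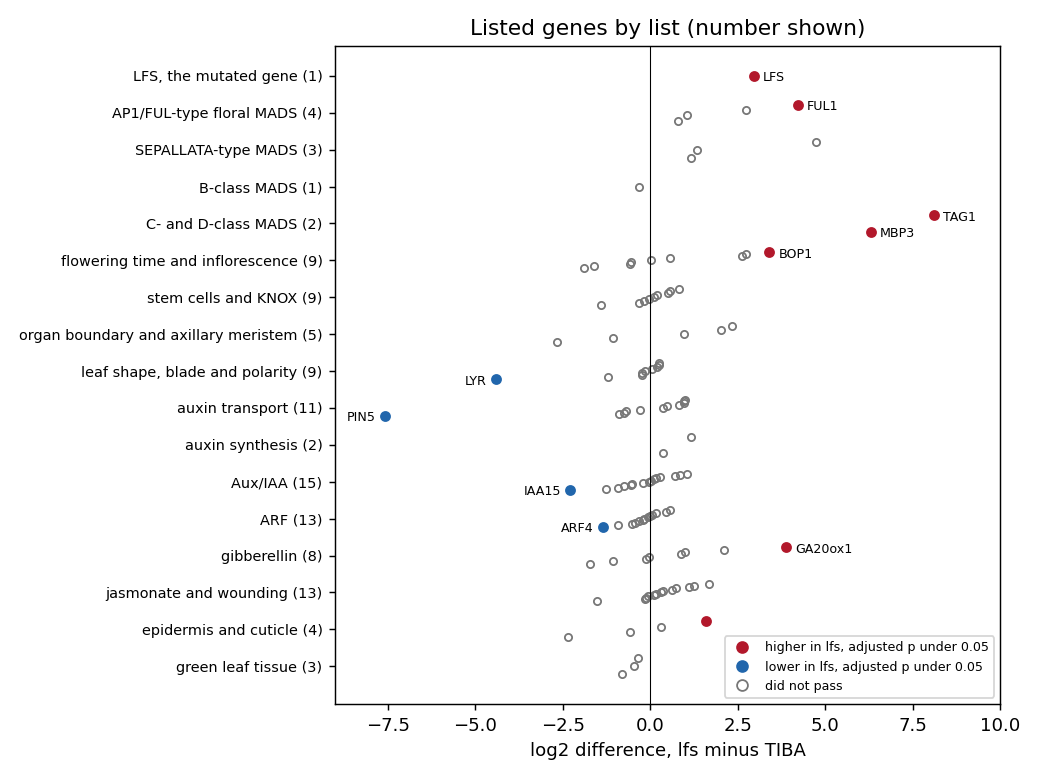
Log2 difference (lfs minus TIBA, on the log2(normalized count + 1) scale) of tested genes, by list, with the number of genes shown in parentheses. Filled red points are higher and filled blue points lower in lfs at a limma adjusted p under 0.05, and open points did not pass; the values of PIN5 and TAG1 rest on 0 reads in lfs and 1 read in TIBA and depend on the pseudocount. All tested AP1/FUL, SEPALLATA and C- and D-class genes lie right of 0, while the ARF and Aux/IAA genes lie on both sides. TM5, TAG1 and GA20ox1 passed the filter on low counts only through lfs, which fixed their side.

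Among 14 genes of flowering time and inflorescence form, 9 were tested and 1 was called, against 1.86% of all genes tested. BOP1 (Solyc04g040220.2, chromosome 4), a BTB-ankyrin cofactor that acts in flowering and leaf form in tomato, had 114 and 279 in lfs, against 16.5 and 15.6 in TIBA pins and 647 and 725 in WT. It rose 10.5-fold in lfs over TIBA (log2 3.40, SE 0.53, limma adjusted p = 0.031), yet both leafless groups lay below WT. BOP1 did not pass without lfs replicate 2 (adjusted p = 0.265), TIBA replicate 1 (0.0751) or TIBA replicate 2 (0.127), nor with the filter set at a mean of 5 CPM (0.0578). Its relatives were placed in the same order. BOP2 had 49.6 and 82.9 in lfs, against 10.8 and 8.38 in TIBA pins and 582 and 615 in WT (log2 2.63, SE 0.53, limma adjusted p = 0.068). BOP3 had 281 and 178 in lfs, against 177 and 130.5 in TIBA pins and 863 and 916 in WT (log2 0.55, limma adjusted p = 0.47). Neither BOP2 nor BOP3 passed by limma. DESeq2 on the 4 libraries called BOP2 (adjusted p = 0.00767) but not BOP3 (0.592). The authors' deposited table gives BOP2 an adjusted p of 0.000257 and BOP3 one of 0.835.

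FA (FALSIFLORA, Solyc03g118160.1), the LEAFY homologue of tomato that gives flower identity, had 630.0 and 1389.5 in lfs, against 3394 and 3606 in TIBA pins and 3730.0 and 3744 in WT. Both lfs values lay below the TIBA and WT values, which lay close together, but the difference did not pass (log2 -1.90, SE 0.35, limma adjusted p = 0.057). The authors' deposited table gives FA an adjusted p of 5.02e-07, and DESeq2 on the 4 libraries gave 1.94e-05. S (COMPOUND INFLORESCENCE, a WOX-type homeobox gene) had 5.06 and 12.2 in lfs, against 0.827 and 0 in TIBA pins and 52.1 and 60.7 in WT. Its lfs to TIBA ratio was 18.4 (exact 95% interval 2.95 to 764, on 20 reads in lfs and 1 in TIBA; limma adjusted p = 0.19). The MADS gene J (JOINTLESS) overlapped between groups, with 1346 and 2084 in lfs, against 3018 and 1975 in TIBA pins. SP (SELF-PRUNING, a flowering repressor) overlapped too, at 11.1 and 2.44 in lfs, against 4.96 and 64.6 in TIBA pins. The florigen gene SFT had 2 reads in lfs and none in TIBA. SFT, SP5G, SP6A, SP9D and AN did not pass the filter.

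Stem cell and meristem genes were present in both groups, and 0 of 9 were called by limma, edgeR or DESeq2, with 0 at an unadjusted limma p under 0.05. WUS, which maintains stem cells, had 147 and 242 in lfs, against 220.1 and 123 in TIBA pins (log2 difference 0.19, SE 0.40). CLV3, the stem cell peptide gene, had 400.1 and 706 in lfs, against 558 and 445 in TIBA pins and 127 and 157 in WT (log2 0.09, SE 0.30). TKN2, the tomato KNOX gene of STM type, had 4820.3 and 6362 in lfs, against 6480.3 and 5007 in TIBA pins (log2 difference -0.04, SE 0.22). The groups overlapped for all 3, so the defining genes of the labelled tissue were read in every leafless library. TKN1 overlapped as well, with 2651 and 1921 in lfs, against 2982 and 2226 in TIBA pins. PTS (PETROSELINUM), a KNOX-like gene of leaves that lacks a homeodomain, had 33.4 and 118 in lfs, against 419 and 67 in TIBA pins and 3417 and 3616 in WT. PTS was thus far lower in every leafless library than in WT, while its leafless groups overlapped.

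Among genes of organ boundaries and axillary meristems, 0 of 5 were called by limma or edgeR, 2 by DESeq2, and 4 reached an unadjusted limma p under 0.05. Over all genes tested, DESeq2 called 5.77% and 3262 of 19807 reached that unadjusted p. In the authors' deposited table, 4 of the 5 had an adjusted p under 0.05, as did 5.65% of its genes. The median log2 difference of the list was 0.96, against 0.02 over all genes, and 3 of the 5 lay above, as did 25.3% of all genes. With 5 members these counts are a description only. LS (LATERAL SUPPRESSOR), a GRAS gene needed for axillary meristems, had 98.2 and 200.02 in lfs, against 28.1 and 40.7 in TIBA pins and 517 and 601 in WT (log2 2.02, SE 0.48, limma adjusted p = 0.10). GOB (GOBLET), a NAC boundary gene, had 1567 and 1812 in lfs, against 1148 and 652 in TIBA pins and 2651 and 3188 in WT (log2 0.96, SE 0.28, limma adjusted p = 0.16). For both genes the order of the groups was WT, then lfs, then TIBA, without overlap. DESeq2 called LS (adjusted p = 0.00572) but not GOB (0.0653). BRC1b, a TCP gene that holds back axillary buds, had 1.01 and 1.63 in lfs, against 7.45 and 23.9 in TIBA pins and 138 and 141 in WT. Its TIBA to lfs ratio was 10.5 (exact 95% interval 3.25 to 53.8, on 29 reads in TIBA and 3 in lfs; limma adjusted p = 0.18). BRC1a overlapped, at 22.3 and 1.63 in lfs, against 12.4 and 19.2 in TIBA pins.

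Of 9 genes of leaf shape, blade and polarity, 1 was called, against 1.86% of all genes tested. LYR (LYRATE, Solyc05g009380.2, chromosome 5), a zinc-finger gene of the JAGGED type that promotes blade growth in tomato leaves, had 3.04 and 3.25 in lfs, against 142 and 53.9 in TIBA pins and 798 and 830.1 in WT. It was close to 0 in both lfs libraries and kept an intermediate level in both TIBA libraries. LYR fell 21.4-fold in lfs below TIBA (log2 -4.42, SE 0.65, limma adjusted p = 0.026). The call was lost without lfs replicate 1 (adjusted p = 0.0683), lfs replicate 2 (0.117), TIBA replicate 1 (0.0836) or TIBA replicate 2 (0.0796), and with the filter set at a mean of 5 CPM (0.0877). FAS, a YABBY gene, had 9.12 and 8.13 in lfs, against 15.7 and 28.7 in TIBA pins and 211 and 224 in WT (log2 -1.21, SE 0.61, limma adjusted p = 0.37). LA (LANCEOLATE), a TCP gene of leaf maturation, had 369 and 352 in lfs, against 436 and 369.9 in TIBA pins (log2 difference -0.16, limma adjusted p = 0.76). Neither passed, and the log2 differences of the other 6 members lay between -0.25 and 0.24.

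Of 15 auxin transport genes, 12 were tested and PIN5 alone was called by limma, against 1.86% of all genes tested. PIN5 (Solyc01g068410.2, chromosome 1), a carrier whose Arabidopsis relative sits in the endoplasmic reticulum, had no read in either lfs library, against 132 and 276 in TIBA pins and 101 and 27.7 in WT. It was at least 74.6-fold lower in lfs, against a floor of 3 reads in each lfs library (391 reads in TIBA; limma adjusted p = 0.0048). PIN5 passed without any 1 library except TIBA replicate 2 (adjusted p = 0.0796). PIN9 had 1662 and 2962 in lfs, against 1776 and 1653 in TIBA pins (log2 difference 0.37, SE 0.28, limma adjusted p = 0.56). The groups overlapped at PIN7, with 789 and 1571 in lfs, against 844 and 467 in TIBA pins. PIN4 did not overlap and differed by under 2-fold on the log2 scale, with 201 and 81.3 in lfs, against 72 and 58.6 in TIBA pins (log2 difference 0.97, SE 0.50, limma adjusted p = 0.39). Among the AUX1-type importers, LAX1 had 1169 and 1211 in lfs, against 926 and 791 in TIBA pins (log2 difference 0.47, limma adjusted p = 0.25). LAX2 had 168 and 405 in lfs, against 418 and 554 in TIBA pins and 1814 and 1756 in WT (log2 -0.88, limma adjusted p = 0.36). PIN2, PIN10 and LAX4 did not pass the filter.

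FZY1 (Solyc06g065630.2), a YUCCA-type gene of auxin synthesis, had 390.0 and 415 in lfs, against 237 and 136 in TIBA pins and 345 and 346 in WT. Both lfs values lay above both TIBA values, and the difference did not pass (log2 1.16, SE 0.31, limma adjusted p = 0.14). FZY3 overlapped, with 72.9 and 48 in lfs, against 33.9 and 61 in TIBA pins. FZY2 and FZY5 were not tested. Of the 2 tested, 0 were called by limma, edgeR or DESeq2, and 1 reached an unadjusted limma p under 0.05. Among all 19807 genes, 3262 reached it. The authors' deposited table gives FZY1 an adjusted p of 0.0365, and 5.65% of its genes were under 0.05.

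Of 17 Aux/IAA repressor genes, 15 were tested and IAA15 alone was called by limma, against 1.86% of all genes tested. IAA15 (Solyc03g120390.2, chromosome 3) had 58.7 and 53.7 in lfs, against 254 and 302 in TIBA pins and 120.3 and 149 in WT. WT lay between the leafless groups. IAA15 fell 4.86-fold in lfs below TIBA (log2 -2.28, SE 0.32, limma adjusted p = 0.024), a call lost without lfs replicate 1 (adjusted p = 0.0741), lfs replicate 2 (0.152), TIBA replicate 1 (0.0581) or TIBA replicate 2 (0.108). IAA12 had 93.2 and 91.1 in lfs, against 211 and 231 in TIBA pins and 253 and 235 in WT (log2 -1.25, SE 0.30, limma adjusted p = 0.10). IAA26 had 5529 and 7068 in lfs, against 3260.4 and 3653 in TIBA pins and 535 and 737 in WT (log2 0.86, SE 0.20, limma adjusted p = 0.097). Neither passed by limma, and IAA26 was high in both leafless groups. DESeq2 on the 4 libraries called IAA12 (adjusted p = 0.0132) and IAA26 (0.0044). The authors' deposited table gives IAA12 an adjusted p of 0.00905 and IAA26 one of 0.0833. Over the 15 tested members, 4 lay above, 6 below and 5 overlapped, where 25.3% of all genes tested lay above and 23.6% below, and the median log2 difference was -0.04, against 0.02 over all genes.

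The ARF list held 3 called genes among 15 tested, 1 higher and 2 lower in lfs, and its other 12 members did not pass. Over all genes tested, 0.687% were called higher and 1.18% lower. ARF4 (Solyc11g069190.1, chromosome 11), of the class that trans-acting small RNAs target, had 3098 and 2694 in lfs, against 7662 and 7054 in TIBA pins and 7084 and 7552 in WT. ARF4 fell 2.54-fold in lfs (log2 -1.35, SE 0.18, limma adjusted p = 0.022). At ARF4 the TIBA pin stood near WT and the lfs apex well below both. Without lfs replicate 1, lfs replicate 2, TIBA replicate 1 or TIBA replicate 2, the adjusted p of ARF4 was 0.0635, 0.171, 0.063 and 0.0896.

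ARF5, the MONOPTEROS-type activator that acts in organ initiation in Arabidopsis, had 5055 and 6473 in lfs, against 7607 and 9015 in TIBA pins and 9376 and 10338 in WT. Its groups did not overlap, but it was not called (log2 -0.53, SE 0.21, limma adjusted p = 0.27). ARF3 had 6885 and 6522 in lfs, against 7749 and 7634 in TIBA pins (log2 difference -0.20, limma adjusted p = 0.61).

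GA20ox1 (Solyc03g006880.2, chromosome 3), an oxidase of gibberellin synthesis, was the 1 called of 8 tested gibberellin genes, against 1.86% of all genes tested. It had 113 and 60.2 in lfs, against 2.48 and 8.38 in TIBA pins and 1.8 and 2.6 in WT. GA20ox1 thus passed the filter on low counts only through lfs, which fixed its place above TIBA. It rose 14.6-fold in lfs (log2 3.87, SE 0.68, on 186 reads in lfs and 10 in TIBA; limma adjusted p = 0.046). The call was lost without lfs replicate 1 (adjusted p = 0.2), lfs replicate 2 (0.186), TIBA replicate 1 (0.0771) or TIBA replicate 2 (0.0851), by edgeR (0.0549 with TMM) and with a pseudocount of 0.5 (0.0526). PRO (PROCERA), the DELLA repressor of gibberellin signalling, had 5028 and 4164 in lfs, against 4818 and 4568 in TIBA pins (log2 difference -0.04, SE 0.19, limma adjusted p = 0.95). Among oxidases that inactivate gibberellins, GA2ox3 had 17.2 and 10.6 in lfs, against 18.2 and 46.7 in TIBA pins (log2 difference -1.06, limma adjusted p = 0.47), and GA2ox5 overlapped, at 177 and 36.6 in lfs, against 43.8 and 7.18 in TIBA pins. GA20ox4, GA3ox1, GA2ox1 and GA2ox2 did not pass the filter.

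Jasmonate and wounding genes held 0 calls by limma, edgeR or DESeq2 among 13 tested. An unadjusted limma p under 0.05 was reached by 2 of the 13, and by 3262 of all 19807 genes. The authors' deposited table gives 2 members an adjusted p under 0.05, AOS2 (0.0134) and JAZ2 (0.0283), as it does 5.65% of its genes. AOS2 had 808 and 796 in lfs, against 509 and 524 in TIBA pins (log2 difference 0.63, limma adjusted p = 0.14). JAZ2, a jasmonate repressor gene, had 113 and 209 in lfs, against 67 and 62.2 in TIBA pins (log2 difference 1.24, SE 0.41, limma adjusted p = 0.21). ARG2, a wound-induced arginase gene, had 679.6 and 2100.2 in lfs, against 579 and 531 in TIBA pins and 71.8 and 101 in WT (log2 1.11, SE 0.48, limma adjusted p = 0.32). LAPA, a wound-induced aminopeptidase gene, had 10.1 and 65 in lfs, against 83.6 and 69.4 in TIBA pins (log2 difference -1.51, SE 0.82, limma adjusted p = 0.41). JAZ2, ARG2 and LAPA did not pass by limma. The summed list stood at 15758 and 28063 in lfs, against 17910 and 17319 in TIBA pins and 10560 and 10892 in WT, and lfs replicate 2, in which TAG1 and TM5 were high, was also the highest here. The part of this in those results was not tested.

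Markers of other tissues were read in both groups. The epidermis and cuticle list summed to 8202 and 6088 in lfs, against 5311 and 5516 in TIBA pins. Its 4 members went both ways, 2 above and 2 below, where 25.3% and 23.6% of all genes tested did so. The median log2 difference was -0.15, against 0.02 over all genes. Of the 4, 1 was called, higher in lfs, an identifier whose name could not be checked. That call was lost when any 1 of the 4 libraries was left out (adjusted p 0.0718 to 0.1). The cuticle regulator CD2 had 3736 and 3023 in lfs, against 2745 and 2729 in TIBA pins. CER6, an enzyme gene of wax synthesis, had 1522 and 946 in lfs, against 1828 and 1779.9 in TIBA pins. The 3 green leaf genes, all for the small subunit of Rubisco, summed to 36278 and 22014 in lfs, against 31532 and 45878 in TIBA pins and 12889 and 13855 in WT. By limma, edgeR or DESeq2, 0 of the 3 were called. An unadjusted limma p under 0.05 was reached by 1 of the 3, and by 3262 of all 19807 genes. The 3 genes were read in every library, and both leafless groups lay above WT although their samples held no leaf primordia by the labels. The part of these markers in the called differences was not tested.

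The level of called genes in WT differed between the directions. Of the 136 genes higher in lfs, 110 (80.9%) had a WT mean on the TIBA side of the midpoint between the leafless groups, and 66 of them lay beyond the TIBA mean. Of the 233 genes lower in lfs, 104 (44.6%) lay on the TIBA side and 129 (55.4%) on the lfs side, 54 of them beyond the lfs mean. FUL1, TAG1, MBP3 and GA20ox1 were low in both TIBA pins and WT. LFS was lower in both than in lfs but was well read there, at 582 and 338 in TIBA pins and 707 and 711 in WT. ARF4 was high in both. BOP1 and LYR stood highest in WT, with lfs between the other groups for BOP1 and TIBA between them for LYR. This position rests on the same lfs and TIBA values that set the calls, and WT samples also held leaf primordia, so it is given without a test.

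**Figure D4:**
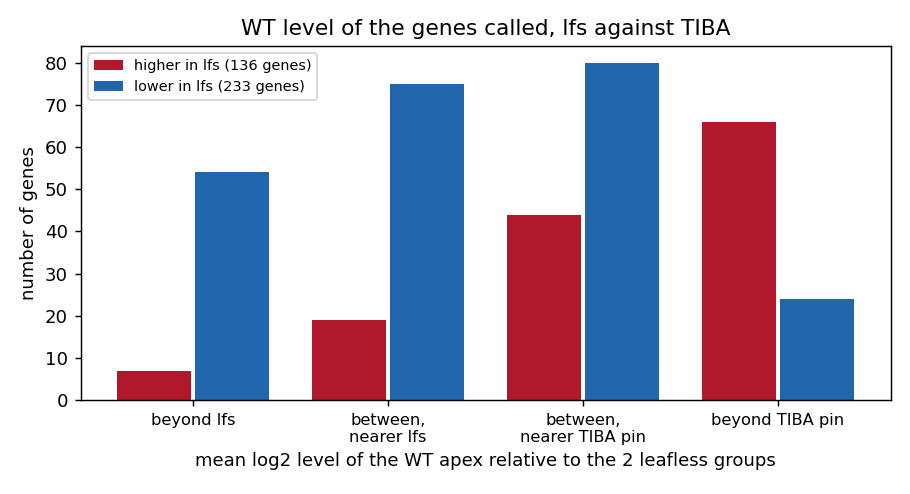
Number of called genes (vertical axis) by where the WT mean log2 level lies relative to the means of the lfs apex and the TIBA pin. Red bars count the 136 genes higher in lfs, of which 66 have WT beyond TIBA, and blue bars the 233 genes lower in lfs, of which 80 and 75 lie between the groups on the TIBA and the lfs side.

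Chromosomes 1 to 12, read from the identifiers, all carried called genes. The share called ran from 0.597% on chromosome 11 (8 of 1339 genes) and 1.04% on chromosome 8 to 2.36% on chromosome 1 (60 of 2544), against 1.86% overall. Chromosome 5, which carries LFS, stood at 1.7% (22 of 1292). A called neighbour in the order of all identifiers was found for 38 of the 369 genes. No background share was computed for this count, so it cannot show whether called genes cluster.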

How the data were processed

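The 6 libraries of dissected tomato apices (3 groups of 2 libraries) were made with an RNeasy and a TruSeq kit per the labels' protocols. They were processed with TopHat2 2.0.10 (alignment), HTSeq 0.6.1p1 (counting) and DESeq2 1.6.3, according to the submitters' processing notes. Not given in the sources used here are genome build, annotation and strand setting. The deposited signal is DESeq2-normalized counts, per the file headers, that is gene counts divided by 1 size factor per library. The authors also deposited a log2 fold change, a p-value and an adjusted p-value per gene for each comparison, per the file headers. All 208332 signal values (100%) were whole reads within 0.001 once multiplied back, so reads were recovered, and no sample column was left unused.

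The test of lfs against TIBA was limma 3.58.1 (R 4.3.3, intensity trend, robust moderation) on log2(value + 1) of the 4 leafless libraries, with Benjamini-Hochberg adjustment over the 19807 genes that reached 10 in at least 2 libraries, and a threshold of 0.05. Library totals, 17640302 to 26054787 reads, bound the precision of low counts. A gene without a read in a group has its fold computed against 3 reads per library. A gene with 1 to 3 reads in a group has a ratio with an exact 95% interval. edgeR 4.0.16 and DESeq2 1.42.0 on recovered reads, other scalings, pseudocounts, filters, blocks and each library left out were alternatives. The pipeline was tested on simulated data.

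Described in full were LFS and the 2 called genes with the largest difference in each direction at a mean of at least 50. So were checked list members that passed the filter and were called, or whose groups did not overlap with means at least 2-fold apart. Members outside that rule that are given values, such as the meristem genes, were chosen after their values were seen. Some list members enter the counts but are not reported here. Members, lists and the test were chosen with earlier results of these data known. The names TPI and LePI had been swapped when the lists were written and were set right after RefSeq placed TPI on chromosome 6. The labels do not say what a repeat number shares, so the main test did not pair the libraries. Deviations of same-numbered lfs and TIBA libraries correlated at -0.14 across genes. With 2 libraries per group, that value cannot show whether they shared a batch.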

Additional observations from a re-analysis of the deposited data

How the results depend on the processing

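Against the 369 genes called (136 higher, 233 lower in lfs, 12 of them listed), fitting all 6 libraries with 1 spread called 912 (390, 522 and 19), and DESeq2 called 1142 (459, 683 and 21). Without the filter on low counts 49 were called (13, 36 and 4), and with a mean of at least 5 CPM 228 (88 and 140). Leaving out each library in turn gave 47 to 228 genes (12 to 95 higher, 24 to 183 lower, 3 to 9 listed), with non-overlapping groups at 7053 to 8203 genes above and 6444 to 7950 below. The replicate block on the labels' numbers called 416. That block ended no named call and added TM5 (limma adjusted p = 0.0333) and FA (0.0148), but the labels do not say what those numbers share. A crossed replicate block, chosen after seeing the data, called 1320 (577 higher, 743 lower, 23 listed). The 2 edgeR fits (322 and 335), TMM scaling (359), group weights (360) and pseudocounts of 0.5 (349) and 5 (396) stayed within 1.5 times. The causes of these shifts were not tested. No call of a named gene reversed: of their values under the alternatives, 510 kept their side of the threshold, 51 lost a call and 33 gained one. Genes that were not called and stayed so count among the 510, and only called genes could lose a call. Without the filter, LFS (limma adjusted p = 0.0606), TAG1 (0.0788), BOP1 (0.0935), LYR (0.0819), IAA15 (0.0686), ARF4 (0.0682) and GA20ox1 (0.119) lost theirs. With 2 libraries per group, fold changes under about 2-fold were rarely callable: the smallest called log2 difference was 0.97.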
